A study of Mus musculus with 12 samples.

Results

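Actb and Tuba1b, a cytoskeletal pair of transcripts, were followed across 4 brain regions of the mouse. They were picked by probe name and accession from the 15 genes that the array names by a RefSeq accession. The Actb probe carried the accession NM_007393.3 and the Tuba1b probe NM_011654.2. Each gene had 1 probe, printed in 20 copies at scattered places on every scan. The 2 probes are among 60915 probes measured and among 56573 that were bright enough to be tested, and both were well above background in all 20 copies on all 12 scans.

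Actb encodes beta-actin of the cytoplasm, which polymerizes into the thin filaments that shape the cell cortex and, in neurons, growth cones and dendritic spines. Tuba1b encodes an alpha-tubulin, which pairs with beta-tubulin to build microtubules, the tracks for transport along axons and dendrites. Both transcripts are abundant in brain and are often used as reference genes when other transcripts are measured, a use that assumes similar levels in the samples compared. The question asked of them here was whether their signals differed between regions and whether the answer depended on how arrays were put on a common scale.

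The groups were the olfactory bulb, hypothalamus, hippocampus and cerebellum of male BALB/c mice aged 10 weeks, and the labels name no allele or agent for any of them. For each region 3 single-colour array scans were given, 12 in all, of RNA that had been depleted of ribosomal RNA and copied from random primers. The series text counts 3 mice for the arrays but the labels tie no array to an animal, so p-values measure only the spread between these arrays. All values come from whole dissected tissue, in which fewer cells of a type and less RNA per cell cannot be told apart. None of the 15 named genes is a defining marker of a brain region, so the region labels were not checked against markers. Probe sequences were not used here, and both probes could also bind transcripts of close relatives, the other actins and alpha-tubulins, or of processed copies.

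Across the series, scans had 87.9% to 93.2% of their probes well above background and median signals of 290.7 to 443.1 intensity units. Replicates 1 and 3 of the hippocampus, and likewise of the cerebellum, were nearly the same measurement. Over 15229 bright probes they differed with an SD of 0.0279 and 0.0263 on the log2 scale, less than the 0.0779 by which copies of a probe varied within the most even scan. Each such pair of scans was averaged and counted as 1 array, which left 10 arrays, 2 for the hippocampus, 2 for the cerebellum and 3 for each of the other regions. The headers give 4 scan times, with replicate 1 of every region at the first, replicate 2 at the second, and replicate 3 of the olfactory bulb and hypothalamus at the third. The repeated scans, replicate 3 of hippocampus and cerebellum, were at scan time 4. The averaged arrays thus mix scan times 1 and 4 and were counted with the first; with the repeated scans left out, 4 pairs of regions still passed for Actb and 3 for Tuba1b.

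The 20 copies of each probe pinned its signal down closely on every scan. The standard deviation of the copies on the log2 scale was between 0.0141 and 0.0493 for Actb and between 0.0115 and 0.0371 for Tuba1b. Of 240 spots per gene over the 12 scans, 14 for Actb and 15 for Tuba1b were marked as outliers by the scanner software and left out. Copies share a scan and an RNA, so they are not replicates of a region.

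In the olfactory bulb the processed signal of Actb, as the geometric mean of its copies, was 24705, 24497 and 26317 intensity units on the scans of replicates 1, 2 and 3. In the hypothalamus it was 20212, 20335 and 22318. In the hippocampus it was 26173, 26316 and 24021, where the first and last are the repeated scan. In the cerebellum it was 15079, 15497 and 13862, again with the first and last repeated, so that every cerebellar scan lay below every scan of the other regions before any scaling.

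Tuba1b gave far brighter spots than most of the array. Its processed signal was 310655, 282747 and 288798 intensity units in the olfactory bulb and 316076, 294116 and 310970 in the hypothalamus. It was 259442, 239271 and 239956 in the hippocampus and 252430, 236051 and 233877 in the cerebellum. Before scaling, the olfactory bulb and hypothalamus therefore stood above the other regions on every scan. No copy was saturated: the brightest, at 323328.5 units, reached 41.5% of the saturation value of its scan.

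**Figure D1:**
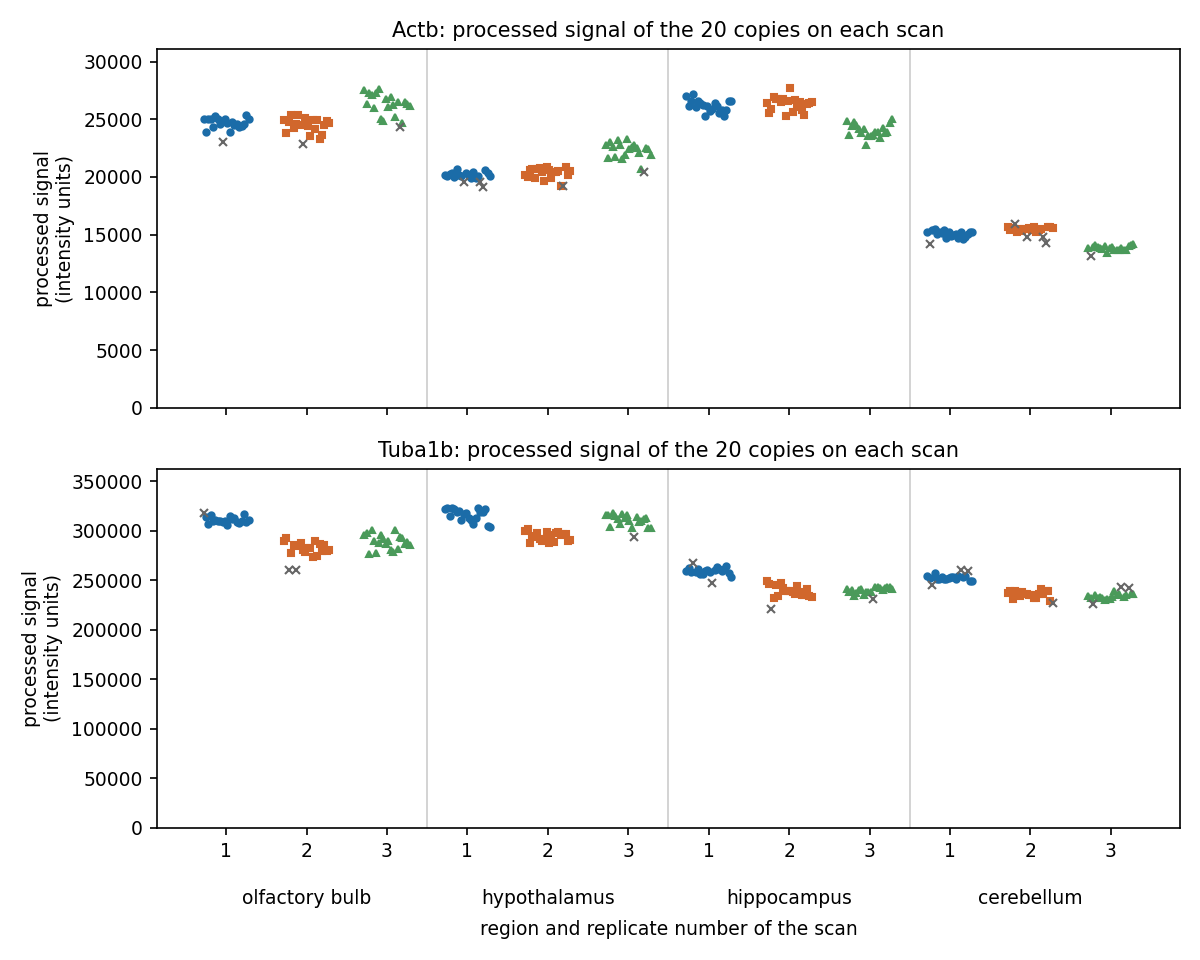
Processed signal (intensity units, axes from 0) of the 20 copies of the Actb probe (top) and the Tuba1b probe (bottom) on each of the 12 scans; colours and shapes mark the replicate number, and grey crosses are copies marked as outliers. The Actb copies of the cerebellum lie below those of all other regions on every scan, and the copies within a scan spread far less (at most 0.0493 on the log2 scale) than the regions do.

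Signals were put on a common scale by subtracting the 75th percentile of each scan on the log2 scale. That percentile was 1491 to 1617 intensity units in the olfactory bulb, 1401 to 1579 in the cerebellum, 1168 to 1263 in the hippocampus and 1108 to 1126 in the hypothalamus. Scaling therefore raised the hypothalamus and the hippocampus relative to the other regions.

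Scaled Actb signal was lowest in the cerebellum and highest in the hippocampus. On the log2 scale relative to the 75th percentile it was 3.93, 3.93 and 4.14 in the olfactory bulb. Hypothalamic arrays gave 4.19, 4.18 and 4.31. In the hippocampus it was 4.38 and 4.38, and in the cerebellum 3.32 and 3.29. The arrays of no pair of regions overlapped. Absence of overlap was common on this platform, however, and held for 38.2% (olfactory bulb and hypothalamus), 42.5% (olfactory bulb and hippocampus), 43.0% (olfactory bulb and cerebellum), 40.7% (hypothalamus and hippocampus), 52.3% (hypothalamus and cerebellum) and 55.0% (hippocampus and cerebellum) of all probes tested.

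The 4 region means of Actb spanned 1.07 on the log2 scale, and the difference between regions passed the test (limma F test, adjusted p 0.000427), as it did for 36.0% of all probes tested. The median span over all tested probes was 0.642, and 24.2% had a larger span than Actb. Among the 15 named genes the span of Actb ranked 2.

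Ordered by mean, Actb stood at 4.38 ± 0.0006 (SD, n = 2) in the hippocampus and at 4.22 ± 0.07 (SD, n = 3) in the hypothalamus. The olfactory bulb followed at 4.00 ± 0.12 (SD, n = 3), and the cerebellum came last at 3.31 ± 0.02 (SD, n = 2). The small hippocampal SD rests on n = 2 and became 0.014 with the repeated scan left out. The cerebellum was lower than each other region. The hippocampus exceeded it by 1.07 (95% interval 0.82 to 1.33, adjusted p 0.000231 by limma, where 23.3% of probes passed), a 2.1-fold difference. The hypothalamus exceeded it by 0.92 (0.68 to 1.15, adjusted p 0.000286, 26.1% of probes), or 1.89-fold. The olfactory bulb, the next lowest region, exceeded it by 0.69 (0.46 to 0.93, adjusted p 0.00152, 21.5% of probes), or 1.62-fold.

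Among the other 3 regions the steps in Actb were small. The olfactory bulb lay below the hippocampus by 0.38 (limma log2 difference -0.38, 95% interval -0.61 to -0.15, adjusted p 0.0321, where 20.3% of probes passed). This call was lost in a fit of those 2 regions alone (adjusted p 0.15) and without any 1 of 7 arrays, namely olfactory bulb replicates 1 and 2, both hippocampus arrays and all 3 hypothalamus arrays. The adjusted p then lay between 0.0509 and 0.142, while the difference lay between -0.45 and -0.34 whichever array was left out; a lone hippocampus array is assumed to vary like those of the other regions. Neighbours in the order did not pass the test. Between hypothalamus and hippocampus the difference was -0.16 (-0.39 to 0.08, adjusted p 0.413), and between olfactory bulb and hypothalamus it was -0.22 (-0.43 to -0.01, adjusted p 0.126). The intervals are not adjusted for the number of probes.

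With scan time as a block in the limma fit, Actb still differed over the 4 regions (adjusted p 6.33e-05, where 53.9% of probes passed), each pair kept its direction, and all 6 pairs passed rather than 4. The olfactory bulb and hypothalamus then differed with an adjusted p of 0.00513 (41.4% of probes passed) and the hypothalamus and hippocampus with one of 0.014 (32.5% of probes). Of the pairs already called, that block called 37.3% of probes between olfactory bulb and hippocampus, 42.0% between hypothalamus and cerebellum and 41.5% between hippocampus and cerebellum. Within scan times the hippocampus exceeded the cerebellum by 1.06 at the first and 1.09 at the second. The hypothalamus exceeded the olfactory bulb at each of the 3 scan times, with differences (olfactory bulb minus hypothalamus) of -0.26, -0.24 and -0.17.

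Scaled Tuba1b signal was highest in the hypothalamus. On the log2 scale relative to the 75th percentile it was 8.16, 8.03 and 8.11 in the hypothalamic arrays. In the olfactory bulb it was 7.59, 7.46 and 7.60. In the hippocampus it was 7.70 and 7.57, and in the cerebellum 7.39 and 7.22. The hypothalamic arrays stood above all others, the olfactory bulb and the hippocampus overlapped, and the arrays of every other pair of regions were apart. After quantile normalization the hypothalamic arrays were apart from those of the hippocampus and cerebellum, and the arrays of all other pairs overlapped. Relative to the 75th percentile, 40.7% of tested probes lay apart between hypothalamus and hippocampus and 52.3% between hypothalamus and cerebellum. No such share is given after quantile normalization.

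The region means of Tuba1b spanned 0.79 (limma F test, adjusted p 0.00181), and 38.7% of tested probes had a larger span. The hypothalamic mean was 8.10 ± 0.06 (SD, n = 3) and the hippocampal one 7.63 ± 0.09 (SD, n = 2). The olfactory bulb followed at 7.55 ± 0.08 (SD, n = 3), and the cerebellum came last at 7.31 ± 0.12 (SD, n = 2). Of 6 pairs of regions 3 passed the test, and all 3 involved the hypothalamus. For comparison, 27.6% of all tested probes passed in at least 3 pairs, and 16.1% in at least 4, as Actb did.

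The hypothalamus exceeded the cerebellum in Tuba1b by 0.79 (95% interval 0.56 to 1.02, adjusted p 0.000696 by limma), or 1.73-fold. The olfactory bulb lay below the hypothalamus, with a difference of -0.55 (-0.76 to -0.34, adjusted p 0.00307, where 23.4% of probes passed). The hypothalamus exceeded the hippocampus by 0.47 (0.23 to 0.70, adjusted p 0.0153, 16.9% of probes), a call that was lost without hypothalamus replicate 1 (adjusted p 0.054), hypothalamus replicate 3 (0.056) or hippocampus replicate 2 (0.126), and in a fit of those 2 regions alone (0.0588).

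The other 3 pairs did not pass for Tuba1b. The hippocampus and cerebellum differed by 0.32 (95% interval 0.07 to 0.58, adjusted p 0.0773 by limma), the olfactory bulb and cerebellum by 0.24 (0.005 to 0.47, adjusted p 0.155) and the olfactory bulb and hippocampus by -0.08 (-0.32 to 0.15, adjusted p 0.649). With scan time as a block the first pair (adjusted p 0.00227) and the second (0.0086, where 36.2% of probes passed) joined the calls, for 5 of 6 pairs. In each of the 4 regions the array of the first scan time read higher in Tuba1b than that of the second, by 0.12 to 0.17, whereas for Actb the same gap was 0.0009 to 0.028.

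**Figure D2:**
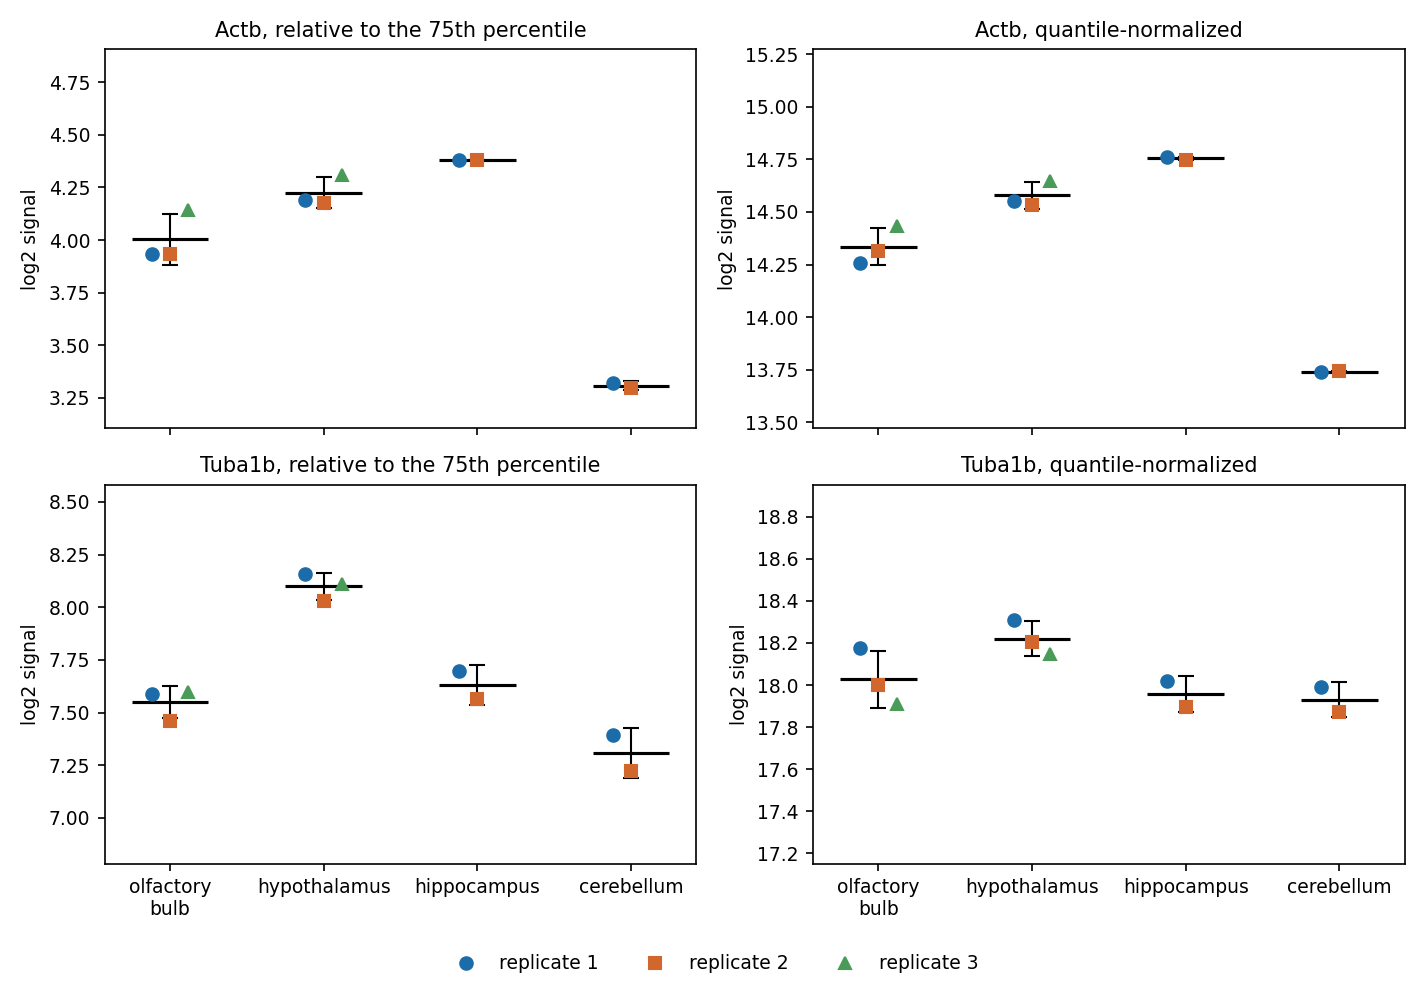
Log2 signal of Actb (top) and Tuba1b (bottom) in each of the 10 arrays by region, relative to the 75th percentile of the scan (left) or after quantile normalization (right); bars are region means, whiskers 1 SD, colours and shapes the replicate number, and all panels span the same log2 range. Actb is lowest in the cerebellum on both scales, whereas the span of Tuba1b means falls from 0.79 on the left to 0.29 on the right.

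Actb differences with the cerebellum passed under each scale tried. Over 7 scalings (the 75th percentile, the median, the 90th percentile, the mean of the 13 other named probes, quantile normalization, cyclic loess, and the 75th percentile after another background correction, normexp), its region means spanned 1.00 to 1.16. The same number of pairs, 4, passed under each. Relative to the 75th percentile 16.1% of all tested probes passed in at least 4 pairs, and that share is not given for the other scalings. The cerebellum was below the hippocampus by 1.00 to 1.16, below the hypothalamus by 0.75 to 0.92 and below the olfactory bulb by 0.57 to 0.70. With no scaling at all the cerebellum was still lowest, by 0.78, 0.48 and 0.75 in the same order (adjusted p at most 0.00296 by limma). The order of the olfactory bulb and hypothalamus turned without scaling, with the olfactory bulb higher by 0.27 (adjusted p 0.0221). The olfactory bulb and hippocampus did not pass without scaling, at -0.03 (adjusted p 0.818). In olfactory bulb minus hypothalamus the median over all tested probes was itself shifted by 0.46 without scaling. It was shifted by 0.37 in olfactory bulb minus hippocampus and by -0.45 in hypothalamus minus cerebellum. The mean of the 13 other named probes shifted that median most in olfactory bulb minus hippocampus (-0.19), and normexp in olfactory bulb minus hypothalamus (-0.11).

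Actb could also be placed by rank, which no rescaling of a scan can move. On the cerebellar scans 5.46% to 5.55% of all probes were brighter than Actb, against 3.85% to 4.23% in the olfactory bulb, 3.39% to 3.64% in the hypothalamus and 3.14% to 3.21% in the hippocampus. The order of the regions by rank was that of the scaled signal, with no overlap between regions. The rank ranges, here and for Tuba1b below, include the repeated scans. No share of all probes that lie apart by rank is given.

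Whether regions passed for Tuba1b depended on the scale. Over the same 7 scalings its span lay between 0.29 and 0.79, and between 0 and 5 pairs of regions passed. Quantile normalization gave the least: the span was 0.29 (limma F test, adjusted p 0.188, where 36.6% of probes passed), and of the 6 pairs 0 passed, or 2 at an unadjusted p under 0.05. The hypothalamus exceeded the cerebellum by 0.29 (adjusted p 0.097) rather than 0.79. Adding scan time as a block to quantile-normalized values brought 3 pairs past the test. The hypothalamus then exceeded the cerebellum by 0.34 (95% interval 0.23 to 0.45, adjusted p 0.00223). No share of all probes is given for that fit. On the main scale the block alone raised the share passing the limma F test from 36.0% to 53.9%. For the hypothalamus against the olfactory bulb, hippocampus and cerebellum, shares rose from 23.4%, 16.9% and 26.1% to 41.4%, 32.5% and 42.0%. Whether the gain from 0 to 3 pairs was particular to Tuba1b was not tested. Scaling on the 13 other named probes gave 5 pairs (share of all probes not given) and a hypothalamic excess over the cerebellum of 0.71. Without scaling that excess was 0.36, and the olfactory bulb no longer differed from the hypothalamus past the threshold (-0.06, adjusted p 0.516 by limma). The hypothalamus had the highest Tuba1b mean under all 7 scalings, whereas the order of the other regions moved among them.

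The brightest probes as a class shifted with the scale too. Among the 566 brightest tested probes (the top 1% by mean signal), which include Tuba1b, the median difference between hypothalamus and cerebellum was 0.43 relative to the 75th percentile and -0.0078 after quantile normalization. Over all tested probes those medians were -0.014 and -0.035. Between olfactory bulb and hypothalamus the brightest 1% stood at -0.23 and 0.021 under the same scales. Actb belongs to the 5092 probes between the top 1% and the top 10%, whose median difference between hypothalamus and cerebellum was 0.13 relative to the 75th percentile, against 0.92 for Actb itself. The part of this shift in the Tuba1b differences was not tested. By rank, Tuba1b was exceeded by 16 to 40 probes on the hypothalamic scans, 35 to 85 in the olfactory bulb, 60 to 87 in the hippocampus and 65 to 92 in the cerebellum, so that the hypothalamic range met only that of the olfactory bulb.

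**Figure D3:**
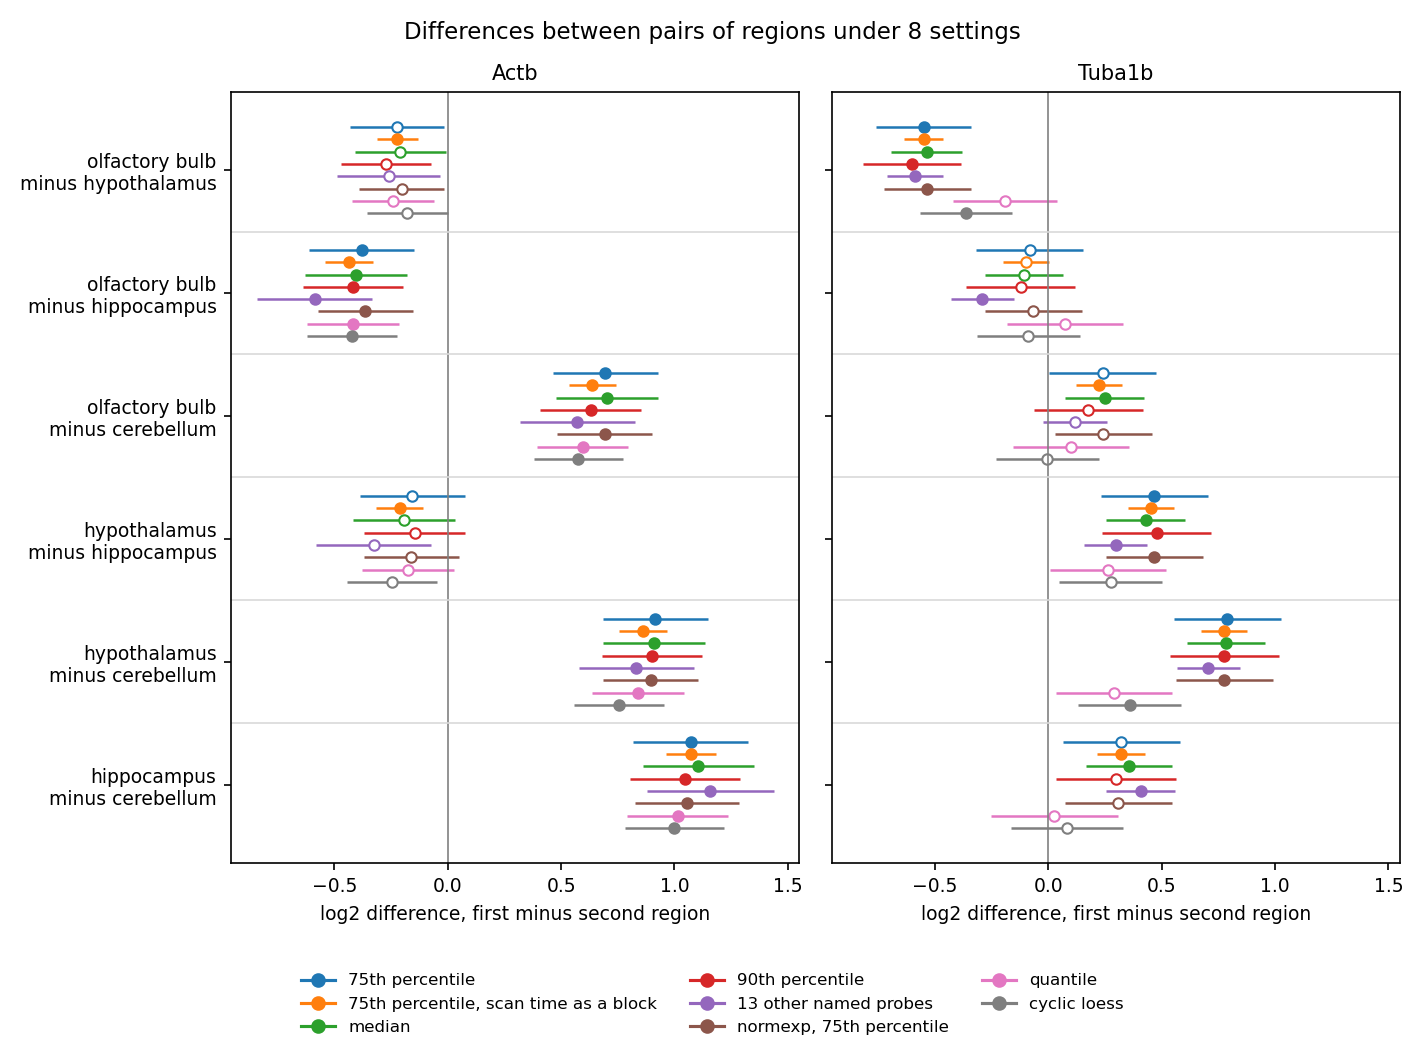
Log2 difference of Actb (left) and Tuba1b (right) for the 6 pairs of regions, first region minus second, under 8 settings told apart by colour (the 75th percentile with and without scan time as a block, and the 6 other scalings); lines are 95% intervals, filled points passed the limma test at an adjusted p under 0.05 and open points did not. For Actb the 3 pairs with the cerebellum are filled under each setting shown. For Tuba1b the points of quantile normalization and cyclic loess lie nearer 0 than the others drawn in the comparisons of the hypothalamus with the olfactory bulb and the cerebellum.

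The difference between both probes on the same array does not depend on any factor by which the array is scaled. Its size is no ratio of transcript levels, since probes differ in brightness, but its change between regions shows whether Actb and Tuba1b changed alike. Log2 Actb minus log2 Tuba1b was -3.65, -3.53 and -3.46 in the olfactory bulb, and -3.97, -3.85 and -3.80 in the hypothalamus. In the hippocampus it was -3.31 and -3.18, and in the cerebellum -4.07 and -3.93. The hippocampal arrays were the highest, those of the olfactory bulb were next, and the ranges of the hypothalamus and the cerebellum overlapped.

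This difference varied between regions (exact permutation test over the 4 regions, F statistic, p 0.000635 over 25200 arrangements, of which the smallest possible p is 0.000159). How often other pairs of probes vary as much, or lie apart between regions, is not given. Taken singly, 36.0% of all tested probes passed the limma F test over the 4 regions. The hippocampal mean was -3.25 ± 0.09 (SD, n = 2), and the olfactory bulb followed at -3.55 ± 0.10 (SD, n = 3). The hypothalamus stood at -3.87 ± 0.08 (SD, n = 3) and the cerebellum at -4.0 ± 0.10 (SD, n = 2). Relative to Tuba1b, hippocampal Actb was thus 1.68-fold above its cerebellar value, a log2 gap of 0.75, and 1.54-fold above its hypothalamic value. Between hypothalamus and cerebellum the gap was 0.13, and it was 0.10 in the arrays of replicate 1 and 0.075 in those of replicate 2. In each region the array of replicate 1 lay below that of replicate 2, by 0.11 to 0.14, which is part of the SDs above.

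Within scan times the larger gaps kept their size. The hippocampus exceeded the cerebellum by 0.76 at the first scan time and by 0.74 at the second. The olfactory bulb exceeded the hypothalamus by 0.31, 0.33 and 0.34 at the 3 scan times. With regions permuted only within replicate numbers the exact permutation p was 0.00694 over 1152 arrangements. Scalings that bend the scale can move the difference, and its span was 0.99 after quantile normalization (exact permutation p 0.00556) and 0.92 after cyclic loess (0.00127), with the hippocampus highest and the cerebellum lowest in both. After quantile normalization the olfactory bulb (-3.92, -3.68 and -3.48) and the hypothalamus (-3.76, -3.67 and -3.50) overlapped. The cerebellar arrays (-4.25 and -4.13) then lay below every hypothalamic array. They did so after cyclic loess too, at -4.21 and -4.09 against -3.87, -3.76 and -3.64.

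**Figure D4:**
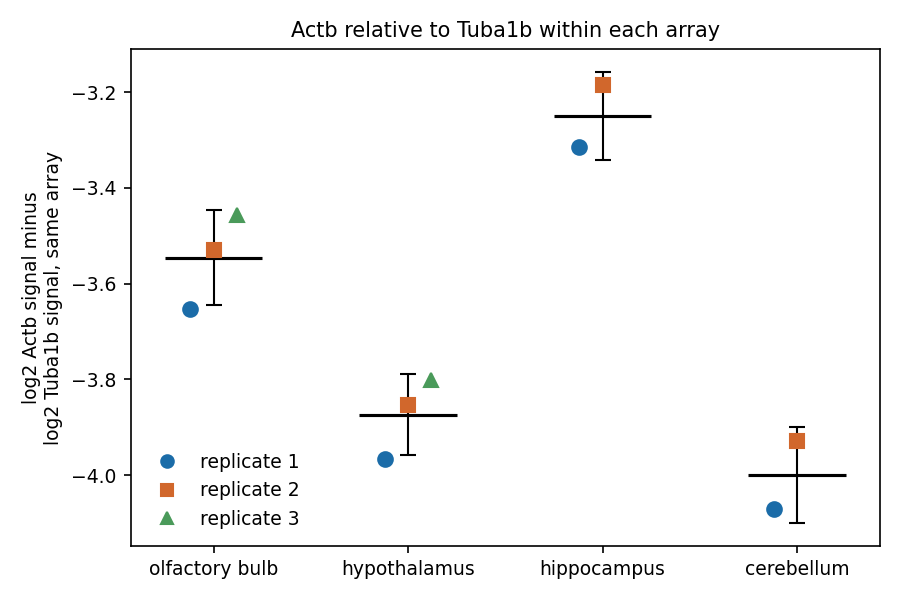
Log2 Actb signal minus log2 Tuba1b signal in each of the 10 arrays by region; bars are region means, whiskers 1 SD, and colours and shapes mark the replicate number. The hippocampus (-3.25) is highest and the cerebellum (-4.0) lowest, and in each region the array of replicate 1 lies below that of replicate 2.

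Within regions both genes were steady. The SD of arrays around their region mean was 0.0818 for Actb and 0.0843 for Tuba1b, against a median of 0.206 over all tested probes, and 8.65% and 9.49% of probes had a smaller SD. Both values are means of 20 copies of bright probes. They were not set against probes of like brightness and copy number. The repeated scans of the hippocampus and cerebellum differed by 0.032 to 0.039 for Actb and by 0.021 to 0.028 for Tuba1b.

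Likeness to other named genes was measured as Pearson's r over the 10 arrays, which share the scale factor of each scan, and is given as a description. The genes most like Actb were Ppia, which encodes cyclophilin A (r = 0.72), Tuba1b (r = 0.68) and Gapdh, a glycolytic enzyme (r = 0.57). The likeness to Ppia was not particular, as 4090 of 56572 other probes (7.23%) reached it. After quantile normalization it turned to r = -0.75, while r with Tuba1b was 0.32 and with Gapdh -0.42. The genes most like Tuba1b were Hprt, a purine salvage enzyme (r = 0.97, reached by 191 probes or 0.338%), Ppia (r = 0.92) and Gapdh (r = 0.78). After quantile normalization r with Hprt was 0.84, whereas it was -0.31 with Ppia and -0.0034 with Gapdh.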

How the data were processed

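The deposited scanner files hold intensity values of spots, extracted with Agilent Feature Extraction 11.0.1.1 per the submitters' processing notes. Per the file headers, background and a spatial trend had been removed from the processed signal. The authors also deposited a table of 60804 probes on the log2 scale, which lists 0 of the 15 named probes and was not used further.

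Genes were named by matching RefSeq accessions without versions to the GRCm38.p6 gene table, and 15 of 15 matched. Control and negative-control probes were dropped, and so were outlier-marked spots (6 to 69 per scan). Log2 processed signals of copies were averaged, and the scan's 75th percentile was subtracted. Testing required a probe to be well above background on every scan of 1 region or more. R 4.3.3 and limma 3.58.1 (lmFit, eBayes; 6 residual degrees of freedom) were used with 1 mean per region and Benjamini-Hochberg adjustment over all probes, within each pair of regions; a difference passed at an adjusted p under 0.05. Differences are on the log2 scale.

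Precision is limited by how few arrays there are. The headers give 4 scan times, and replicates 1, 2 and 3 lie at times 1, 2 and 3, except the repeated scans at time 4, which were averaged into replicate 1. With those counted at the first time, the block on replicate number is the block on scan time; between arrays of the same number, deviations from the region means had r of 0.0927 to 0.746 across probes (13 pairs). The members and tests were chosen with earlier results of these data known. The code was tested on simulated data with differences planted in the cerebellum. Between hippocampus and cerebellum 38% of planted log2 differences of 1 were recovered, and 74% of those of 2. Of probes without a planted difference 0.014% passed. Genes named beyond the members are the 3 most alike by r among the named probes. Alternatives were 6 other scalings or background corrections, filters, handling of copies and scans, variance models, fits of 2 regions and leaving out each array.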

Additional observations from a re-analysis of the deposited data

How the results depend on the processing

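Every alternative run kept Actb different across the 4 regions. Leaving out each of the 10 arrays gave spans of 1.06 to 1.09 and 3 to 4 pairs of regions; for Tuba1b the spans were 0.71 to 0.87 with 2 to 3 pairs, and the within-array difference spanned 0.68 to 0.82 (exact permutation p at most 0.00317). The replicate block, which is the scan-time block, raised the passing pairs from 4 to 6 for Actb and from 3 to 5 for Tuba1b. Tuba1b also passed in 5 pairs with the median of each scan and in 5 with the 13 other named probes. It passed in 0 after quantile normalization, where its span of 0.29 did not pass either (limma, adjusted p 0.188). Shares of all probes passing in as many pairs are not given for these scalings. Directions turned for pairs that had not passed on the main scale. Actb in olfactory bulb minus hypothalamus was 0.27 without scaling and passed (limma, adjusted p 0.0221). Tuba1b in olfactory bulb minus cerebellum was -0.0055 after cyclic loess. In olfactory bulb minus hippocampus Tuba1b was 0.072 after quantile normalization and 0.12 after that with the replicate block. Without scaling that Tuba1b difference was 0.27 and passed (limma, adjusted p 0.0333). Scaled on the 13 other named probes it passed in the opposite direction, at -0.29 (limma, adjusted p 0.0092). The cause was not tested. Fits of 2 regions alone gave 3 pairs for Actb and 2 for Tuba1b. Without scaling, Actb lost the olfactory bulb against hippocampus call (-0.03) and Tuba1b the olfactory bulb against hypothalamus call (-0.06). The 90th percentile, cyclic loess and quantile normalization with the block were chosen after seeing the data. Scaling on spike-in probes was not run, as 6 of 10 were well above background on all scans, nor was the deposited value table.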
